A study of Drosophila melanogaster with 7 samples.

Results

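The nuclear genes of the mitochondrial respiratory chain and the ATP synthase were followed in *Drosophila* embryos depleted of the heterochromatin protein HP1. Their members were chosen by symbol, as the genes of the count table whose FlyBase symbol begins with ND- (complex I), UQCR- (complex III), COX (complex IV) or ATPsyn (complex V). Of 17699 genes in the table, 80 carry these symbols, and 75 of them lie outside chromosome 4 and the pericentromeric parts of 2L, 3L, 3R and X. They comprise 37 genes of complex I, 8 of complex III, 16 of complex IV and 14 of complex V. The remaining 5 genes, *ND-49*, *ND-AGGG*, *ND-MLRQ*, *UQCR-11* and *ATPsynbeta*, were left out for their position and are given for comparison.

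Transcripts were measured by total RNA sequencing in 4 libraries of control embryos (Bloomington stock 36303) and 3 libraries of HP1-KD embryos (stock 33400), all at stage 5, when the zygotic genome is activated (ZGA). HP1-KD mothers expressed a short hairpin RNA against *Su(var)2-5*, the gene of HP1, from a Gal4 driver (stock 7063) active in the female germ line, and the embryos came from crosses of these females with their siblings. The depletion was partial, since complete loss blocks development before ZGA, and HP1-KD embryos carry an inversion on the left arm of the second chromosome. Whether control mothers carried the driver, and how many embryos entered a library, is not given in the sources used here, so p-values measure the spread between these libraries, which may be technical. For the HP1-KD libraries the tissue field reads as wild type, whereas title and genotype give the knockdown, and the latter were followed.

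Complex I passes electrons from NADH to ubiquinone, complex III passes them on to cytochrome c and complex IV to oxygen, and all of these pump protons across the inner mitochondrial membrane. Complex V, the ATP synthase, lets the protons flow back through a turning rotor and makes ATP. Most subunits are encoded in the nucleus and translated in the cytoplasm, and a few are encoded in mitochondrial DNA. The early embryo inherits both mitochondria and messenger RNAs from its mother, so at stage 5 maternal and new zygotic transcripts are counted together.

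Libraries held between 8678092 and 16983585.5 counts, of which ribosomal RNA genes took 15.3% to 47.2% in control and 37.3% to 80.7% in HP1-KD libraries. Levels are given as CPM, counts scaled to the library size as adjusted by the TMM method of edgeR, and 3 counts, taken as the detection floor, amounted to 0.129 to 0.463 CPM. *Su(var)2-5* had 189.2 to 274.6 CPM in control and 81.5 to 99.0 CPM in HP1-KD libraries, a log2 fold change of −1.38 (SE 0.15, edgeR adjusted p = 0.00231). Of the marker lists for other cells, that of differentiated muscle was near 0, with a summed level of 0.349 to 0.644 CPM in control and 0.430 to 1.20 CPM in HP1-KD libraries. The 6 pole cell and germ plasm genes, none of them called, summed to 205.9 to 544.4 CPM in control and 426.6 to 541.2 CPM in HP1-KD libraries. The lowest sum was that of control replicate 3, beside 436.6 to 544.4 CPM in the other control libraries. There *osk* alone had 43.5 CPM, beside 168.7 to 198.1 CPM in the other control libraries. *nanos* also belongs to the list of maternal transcripts below, so these 2 lists are not separate readings. The log2 fold changes of the 6 genes ran from −0.25 for *nanos* to 1.05 for *vas* (edgeR adjusted p = 0.139), with a median of 0.20. Of the 4 haemocyte genes, summing to 10.8 to 34.9 CPM in control and 26.7 to 45.2 CPM in HP1-KD libraries, only *crq* entered the test and was not called. The haemocyte gene *NimC1* was at 0 throughout, and *Hml* had at most 1 count in each control library and 9, 8 and 7.5 counts in the HP1-KD libraries. HP1-KD replicate 1 stood apart in the yolk protein genes *Yp1*, *Yp2* and *Yp3*, which the fat body and follicle cells of the mother express. Their summed level was 315.7 CPM in that library, 3.95 and 0.574 CPM in the other HP1-KD libraries and 0.140 to 0.386 CPM in control libraries. In HP1-KD replicate 1 they had 2046.5 counts, and the 11 eggshell genes of the same marker list together had 31.5 counts. The eggshell genes had 2 counts in each other HP1-KD library and 3 to 11 in control libraries. Of 13 zygotic transcripts of the blastoderm, *Z600* and *odd* were lower in HP1-KD embryos and none was higher, with a median log2 fold change of −0.61. A list of 6 maternal transcripts degraded around this stage was still present, and none of its genes was called. Control replicate 3 stood apart in it, with a summed level of 603.7 CPM beside 1533 to 2170 CPM in the other control and 1776 to 1986 CPM in the HP1-KD libraries. That library also had the most *prd*, a pair-rule gene, at 104.4 CPM beside 19.3 to 39.0 CPM in the other control libraries. The part of these differences in the results on respiratory genes was not tested.

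Of the 75 members, 54 had enough counts for the test, and these were well expressed. Their median control level was 33.6 CPM beside 18.9 CPM over all 8008 genes tested, and 41 of the 54 lay above the median of all genes. Control libraries differed little among themselves, with a median coefficient of variation of 10.7% for the members and 21.9% for all genes. Together the members took 0.467% to 0.570% of all counts outside ribosomal RNA in control libraries and 0.568% to 0.599% in HP1-KD libraries. The widest 95% Wilson interval of these shares, which covers counting error only, ran from 0.591% to 0.607%. The ranges of the groups met, with control replicate 2 at 0.570% and HP1-KD replicate 2 at 0.568%.

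To compare genes, levels were divided by the length of their exons. In control embryos the complexes differed, with a median over tested members of 27.4 CPM per kb for complex I, 27.2 for complex III, 89.8 for complex IV and 100.2 for complex V. Subunits outside the members could shift these medians. In complex III, *RFeSP*, *ox*, *Cyt-c1* and *UQCR-11* had 53.4, 66.7, 71.6 and 36.4 CPM per kb. In complex I, *ND-49*, *ND-AGGG* and *ND-MLRQ* had 56.7, 83.6 and 159.5 CPM per kb. All 8 tested genes of complex IV lay at or above 46.7 CPM per kb, whereas complex III spread 15.5-fold and complex I 14.6-fold from the lowest to the highest gene. At the top of complex I stood *ND-SGDH*, an accessory subunit of the membrane arm, at 60.2 ± 2.88 CPM per kb (SD, n = 4), and at the bottom *ND-51L1*, a paralogue of *ND-51*, at 4.13 ± 0.525. In complex III the extremes were *UQCR-14* at 93.7 ± 8.68 and *UQCR-C2*, 1 of the pair of core proteins, at 6.04 ± 3.13 CPM per kb. The other core protein gene, *UQCR-C1*, had 39.4 ± 7.48 CPM per kb, although both core proteins are built into the complex in equal numbers. In complex IV *COX7B* was highest, at 168.1 ± 17.9, and *COX7A* lowest, at 46.7 ± 10.3. In complex V *ATPsynO*, a subunit of the stalk that holds the enzyme's head still, was highest at 168.3 ± 15.2, near *ATPsynC*, which forms the membrane ring of the rotor, at 159.6 ± 21.4. *ATPsyndelta* of the central stalk was lowest, at 20.9 ± 1.36, and its exons, joined over all annotated transcripts, cover 3817 bases, on which this value depends.

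**Figure D1:**
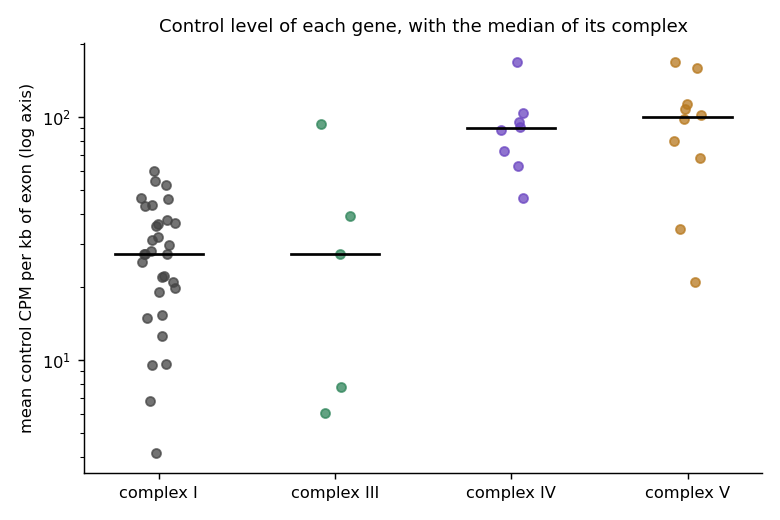
Control level of the 54 tested genes by complex, as the mean CPM per kb of exon over 4 control libraries on a log axis; each point is a gene and each bar the median of its complex. The medians of complexes IV and V (89.8 and 100.2) lie above those of complexes I and III (27.4 and 27.2).

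Against this, the 21 untested members were at or near 0. Their largest count in any library was 10.5, and their largest in an HP1-KD library was 5. Of these, 20 are named as paralogues of another subunit gene. Many duplicated respiratory genes of *Drosophila* are known from the testis. The 10 genes with no count in any library were *ND-20L*, *ND-24L*, *ND-49L*, *ND-B14.5AL*, *UQCR-14L*, *COX6AL*, *COX6AL2*, *COX6CL*, *ATPsynCF6L* and *ATPsynGL*. Those with a few counts were *ND-51L2*, *UQCR-11L*, *UQCR-6.4L*, *COX4L*, *COX5BL*, *COX7AL*, *COX7AL2*, *COX7CL*, *ATPsynbetaL* and *ATPsynepsilonL*. Lower levels of these paralogues were not detectable at this depth. *ND-B8*, a subunit of complex I that is no paralogue of another member, had between 0 and 1.5 counts. *ND-51L1* was the only paralogue that entered the test, with 7.89, 8.03, 9.19 and 10.3 CPM in control and 3.39, 7.35 and 4.74 CPM in HP1-KD libraries. Every HP1-KD library lay below every control library, and the log2 fold change of −0.76 (SE 0.28) did not pass the test (edgeR adjusted p = 0.124).

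To ask whether respiratory genes respond to the loss of HP1, HP1-KD and control libraries were compared over all genes with edgeR's quasi-likelihood test. Of the 54 members tested, 6 rose and 1 fell in HP1-KD embryos at an adjusted p under 0.05. *ATPsyngamma*, *ND-18*, *ND-51*, *UQCR-Q*, *ATPsynF* and *ND-B18* rose by 1.42-fold to 2.07-fold, and *ATPsynE* fell to 0.623 of its control level. The 6 that rose are 11.1% of the members tested, beside 3.70% of all 8008 genes, and the 1 that fell is 1.85%, beside 4.90%. In either direction 13.0% of the members and 8.59% of all genes were called. At an unadjusted p under 0.05, 17 of the 54 members were higher and 5 lower, beside 1080 and 1227 of all 8008 genes. Each library is bulk RNA, in which a change in the number of cells of a type and a change in RNA per cell cannot be told apart. The median log2 fold change was 0.17 over the members and −0.03 over all genes, with 37 members above 0 and 17 below.

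The libraries of the groups did not overlap for 25 members. In 20 of them (37.0%, background 15.2%) every HP1-KD library lay above every control library, and in 5 (9.26%, background 15.1%) every HP1-KD library lay below. The members are also expressed and measured more evenly than most genes, with a median SE of 0.14 beside 0.24 over all genes. Among the 2893 genes at or above the members' median control level, 11.4% had all HP1-KD libraries higher, 19.5% all lower and 2.66% were called higher. The 27 members in that range had 8 genes with all HP1-KD libraries higher (29.6%), 3 with all lower and 2 called higher, with a median log2 fold change of 0.04. In 43 of the 54 members the 95% interval lay within 1 log2 unit of 0 on both sides.

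**Figure D2:**
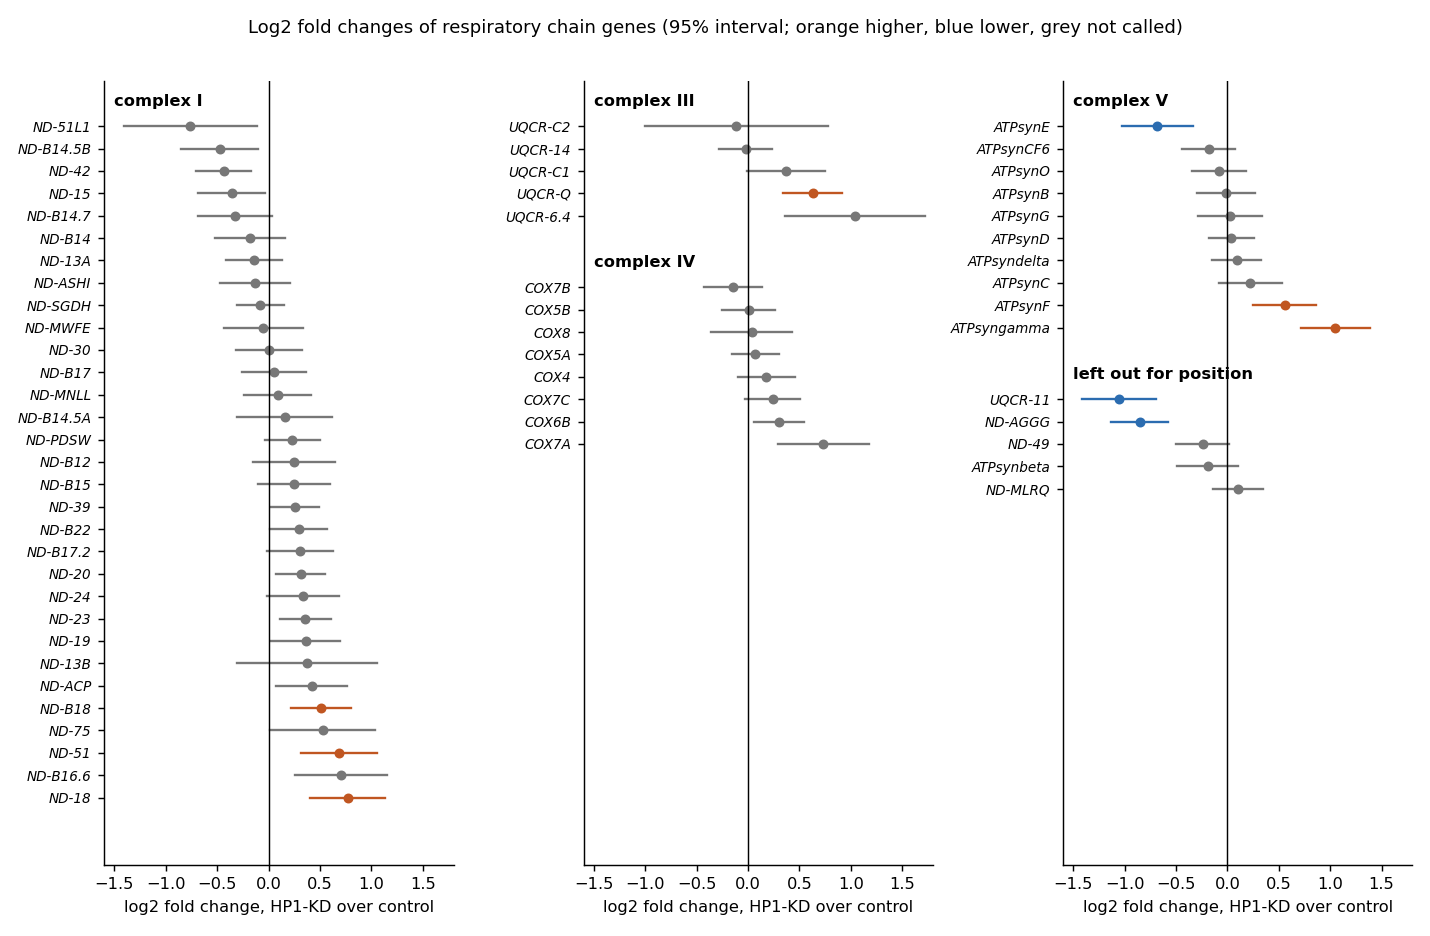
Log2 fold change (HP1-KD over control) of the 54 tested members by complex and of the 5 genes left out for position, with 95% intervals from edgeR's quasi-likelihood fit over 7 libraries. Orange marks the 6 genes called higher, blue those called lower and grey those not called; most values lie within 1 log2 unit of 0, and *UQCR-11* and *ND-AGGG* near the 3L centromere fell.

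The count of called members depended on single libraries, as did the count over all genes. It ranged from 1 to 10 higher and from 0 to 2 lower when each library was left out in turn. Without HP1-KD replicate 1, the library with yolk protein transcripts, 1 member was higher and 0 lower, and the counts were equal to these without HP1-KD replicate 2 and without control replicate 4. Without control replicate 2 or HP1-KD replicate 3, 2 were higher and 0 lower, and without control replicate 3, the library low in maternal transcripts, 10 were higher and 2 lower. Leaving out control replicate 1 gave 5 higher and 2 lower. Over all genes, 688 were called with every library kept. Without HP1-KD replicates 1, 2 and 3 there were 247, 231 and 181. Without control replicates 1, 2, 3 and 4 there were 983, 349, 1212 and 207. *ATPsyngamma* was called in all 7 of the fits that left out a library, with log2 fold changes from 0.95 to 1.15. *ND-18* and *UQCR-Q* were called in 3 of the 7, *ND-51* and *ATPsynE* in 2, and *ATPsynF* and *ND-B18* in 1. The median of the members stayed above 0 in all 7, from 0.11 to 0.22. With libraries scaled by total count alone, the median over all genes shifted to −1.15, the members' median was −0.95 and all 6 members that rose had log2 fold changes below 0, so that directions here are relative to the bulk of genes.

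*ATPsyngamma* (FBgn0020235) encodes the shaft of the ATP synthase rotor. In the dm6 assembly it spans 3R from 29747704 to 29749163, minus strand, and its exons overlap those of no other gene. It had 47.8, 60.1, 46.2 and 47.4 CPM in the control libraries and 120.5, 89.9 and 102.9 CPM in the HP1-KD libraries. The lowest HP1-KD library lay well above the highest control library. The log2 fold change of 1.05 (SE 0.14, 95% interval 0.72 to 1.38) was the highest of the 54 members and passed the test (edgeR adjusted p = 0.00622). The other rotor genes, *ATPsynC* and *ATPsyndelta*, had log2 fold changes of 0.22 and 0.09 and were not called. The epsilon subunit of the central stalk, encoded by *sun* and not a member by its symbol, had 34.9 to 46.1 CPM in control and 50.2 to 58.5 CPM in HP1-KD libraries, a log2 fold change of 0.40 that was not called (edgeR adjusted p = 0.0876).

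In complex V outside the rotor, the 4 genes of the peripheral stalk, *ATPsynB*, *ATPsynD*, *ATPsynCF6* and *ATPsynO*, had log2 fold changes from −0.18 to 0.04, and the libraries of the groups overlapped in all of them. The small membrane subunits e and f, at the base of the enzyme, went opposite ways. *ATPsynF* (subunit f, FBgn0035032) had 54.9, 69.4, 62.7 and 55.1 CPM in control and 101.5, 83.1 and 82.4 CPM in HP1-KD libraries, a log2 fold change of 0.56 (SE 0.13, edgeR adjusted p = 0.042). *ATPsynE* (subunit e, FBgn0038224, on 3R from 14326947 to 14327735, plus strand) had 46.2, 56.7, 48.3 and 45.0 CPM in control and 27.2, 28.1 and 36.4 CPM in HP1-KD libraries. It was the member that fell, by 0.68 on the log2 scale (SE 0.15, edgeR adjusted p = 0.0346), and all HP1-KD libraries lay below all control libraries. *ATPsynG*, subunit g, had a log2 fold change of 0.03 (95% interval −0.29 to 0.34). The median over the 10 tested genes of complex V was 0.03.

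**Figure D3:**
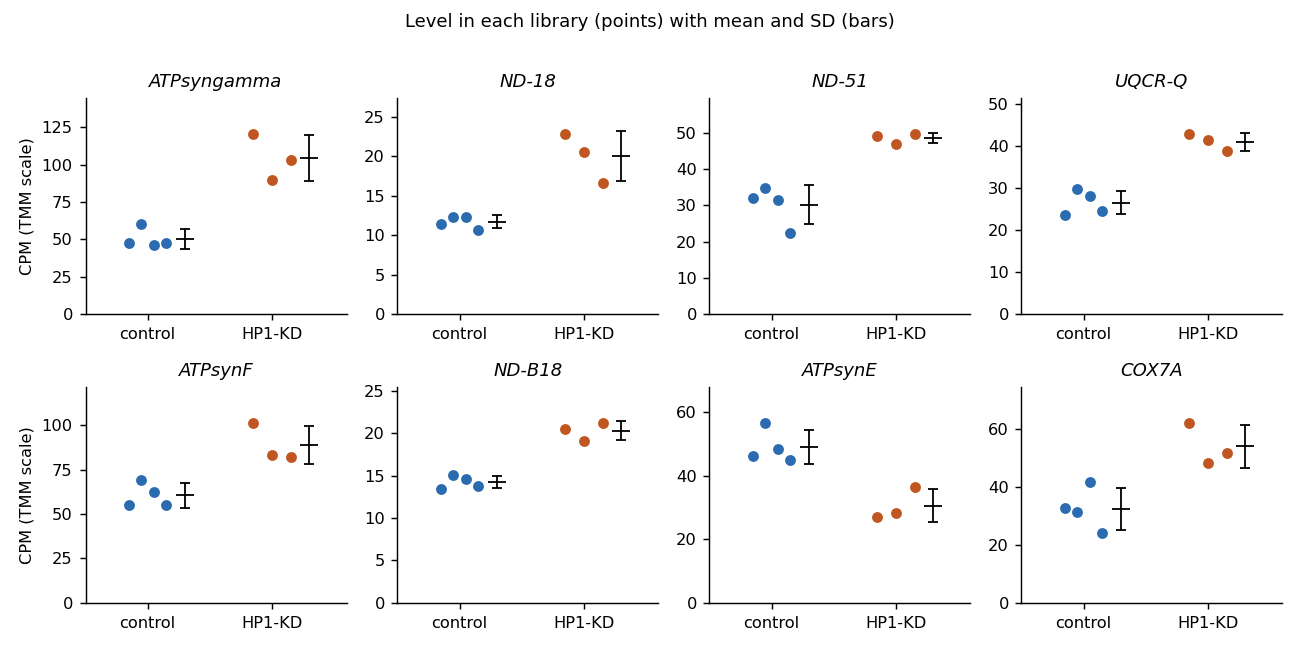
CPM on the TMM scale in each control (blue, n = 4) and HP1-KD (orange, n = 3) library for the 7 called members and *COX7A*, with the mean and SD beside the points; each axis starts at 0. The groups do not overlap in any panel, and *ATPsynE* is the one gene with lower HP1-KD libraries.

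In complex I, 3 of 31 tested genes rose (9.68%, beside 3.70% of all genes) and none fell (beside 4.90%). Its log2 fold changes were above 0 in 21 genes and below in 10, with a median of 0.25. *ND-18* (FBgn0031021), on X from 19492421 to 19493337 on the plus strand, encodes an accessory subunit next to the NADH-oxidizing end, known in mammals as NDUFS4. It had 11.5, 12.4, 12.4 and 10.7 CPM in control and 22.8, 20.6 and 16.6 CPM in HP1-KD libraries, a log2 fold change of 0.77 (SE 0.16, edgeR adjusted p = 0.0269). *ND-51* (FBgn0031771), on 2L from 6060842 to 6062757 on the minus strand, encodes the core subunit that binds NADH and flavin. It had 32.1, 34.9, 31.4 and 22.5 CPM in control and 49.1, 46.9 and 49.6 CPM in HP1-KD libraries, a log2 fold change of 0.68 (SE 0.16, edgeR adjusted p = 0.040). The HP1-KD libraries of *ND-51* lay close together, while control replicate 4 was low. *ND-B18* (FBgn0030605), on X from 15063733 to 15064926 on the plus strand, encodes an accessory subunit of the membrane arm. It had 13.5, 15.0, 14.6 and 13.8 CPM in control and 20.5, 19.1 and 21.2 CPM in HP1-KD libraries, a log2 fold change of 0.51 (SE 0.13, edgeR adjusted p = 0.049).

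The core subunits of complex I, which carry its electron path in all organisms that have it, are encoded by *ND-75*, *ND-51*, *ND-24*, *ND-30*, *ND-20* and *ND-23* among the members. Their 6 log2 fold changes ran from 0.00 for *ND-30* to 0.68 for *ND-51*, with a median of 0.35. Of these genes 1 was called (16.7%, beside 8.59% of all genes). In 5 of the 6 (83.3%, background 15.2%) all HP1-KD libraries lay above all control libraries. The core subunit gene *ND-49*, left out for position, had all HP1-KD libraries below all control libraries, with a log2 fold change of −0.24. *ND-75*, the largest of the iron-sulphur subunits, had 75.1, 60.1, 59.3 and 36.5 CPM in control and 87.3, 87.3 and 75.2 CPM in HP1-KD libraries, so that control replicate 1 and HP1-KD replicate 3 nearly met. The other 25 tested genes of complex I had a median of 0.16, with 2 called (8.0%). All HP1-KD libraries were higher in 28.0% of them and lower in 16.0%. Among these, *ND-42* was 77.9 to 95.2 CPM in control and 59.3 to 71.7 CPM in HP1-KD libraries, a log2 fold change of −0.44 (SE 0.12) that did not pass the test (edgeR adjusted p = 0.0577). This grouping by role was made after the values had been seen.

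In complex III, 1 of 5 tested genes rose (20.0%, beside 3.70% of all genes) and none fell (beside 4.90%). *UQCR-Q* (FBgn0036728), on 3L from 17474761 to 17476124 on the plus strand, encodes a small subunit near the ubiquinone-binding region. It had 23.7, 29.7, 28.1 and 24.7 CPM in control and 42.9, 41.5 and 38.7 CPM in HP1-KD libraries, a log2 fold change of 0.63 (SE 0.13, edgeR adjusted p = 0.0253). *UQCR-6.4*, the smallest subunit, had 3.56, 4.23, 6.27 and 3.35 CPM in control and 11.4, 8.82 and 6.74 CPM in HP1-KD libraries. Its log2 fold change of 1.04 was nearly that of *ATPsyngamma*, with a wider SE of 0.30, and it did not pass the test (edgeR adjusted p = 0.068). The core proteins *UQCR-C1* and *UQCR-C2* had log2 fold changes of 0.37 (95% interval −0.01 to 0.75) and −0.11 (−1.002 to 0.777). *UQCR-C2* ranged from 6.50 to 17.8 CPM within the control libraries, where control replicate 3 was high. The median over the complex was 0.37.

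In complex IV, 2 of the 8 tested genes were higher at an unadjusted p under 0.05, beside 1080 of all 8008 genes. None passed the test, and 7 log2 fold changes were above 0. *COX7A*, a small subunit at the edge of the enzyme, came nearest, with 32.7, 31.4, 41.7 and 24.3 CPM in control and 62.3, 48.2 and 51.7 CPM in HP1-KD libraries. Its log2 fold change was 0.73 (SE 0.19, edgeR adjusted p = 0.054), and DESeq2 called it together with *COX6B*. *COX4*, *COX5A*, *COX5B*, *COX7B*, *COX7C* and *COX8* lay between −0.15 and 0.24, the lowest being *COX7B*. The median over the complex was 0.13.

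Summed over its tested genes, complex III had 126.7 to 178.0 CPM in control and 187.2 to 196.3 CPM in HP1-KD libraries, so that the groups did not overlap. This separation rests on leaving out *UQCR-11* for its position, since with it the sums were 183.0 to 234.8 CPM in control and 208.9 to 227.1 CPM in HP1-KD libraries and overlapped. The sums of the other complexes overlapped between groups. Complex I had 830.6 to 953.9 CPM in control and 923.1 to 1022 CPM in HP1-KD libraries. Complex IV had 465.3 to 550.3 and 523.1 to 616.4 CPM, and complex V 951.6 to 1123 and 1073 to 1189 CPM. HP1-KD replicate 1 had the highest sum in every complex and control replicate 4 the lowest. The yolk protein transcripts of HP1-KD replicate 1 were given above, and their part in this was not tested.

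**Figure D4:**
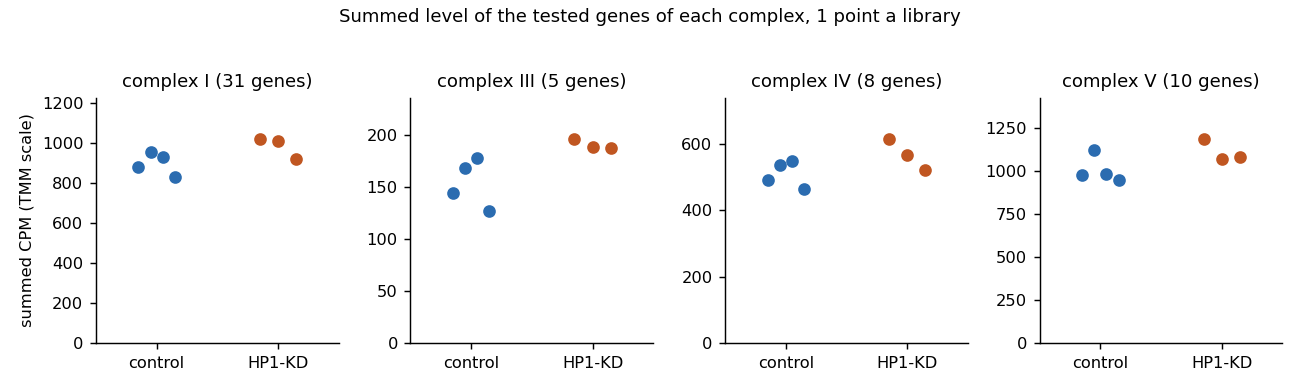
Summed CPM of the tested members of each complex, 1 point a library, for control (blue) and HP1-KD (orange) embryos, with axes from 0. The groups separate for complex III (126.7 to 178.0 against 187.2 to 196.3 CPM), which they no longer do once *UQCR-11* is added, and overlap for complexes I, IV and V.

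The 5 genes left out for position behaved unevenly. *UQCR-11*, the hinge subunit of complex III on 3L from 25120709 to 25126171, had 57.8, 64.2, 56.8 and 56.3 CPM in control and 30.9, 32.2 and 21.7 CPM in HP1-KD libraries, a log2 fold change of −1.06 (SE 0.16, edgeR adjusted p = 0.00891). *ND-AGGG*, an accessory subunit of complex I on 3L from 24976254 to 24977118, had 56.8, 67.1, 58.1 and 67.2 CPM in control and 36.4, 32.0 and 35.0 CPM in HP1-KD libraries, a log2 fold change of −0.86 (SE 0.12, edgeR adjusted p = 0.00651). Both fell in all 7 fits that left out a library. *ND-MLRQ*, also pericentromeric on 3L, had a log2 fold change of 0.10 (95% interval −0.14 to 0.34). On chromosome 4, *ND-49* and *ATPsynbeta*, a core subunit of complex I and the catalytic subunit of the ATP synthase, had log2 fold changes of −0.24 and −0.19 and were not called. No member outside these regions fell as far as *UQCR-11*. That difference was not tested.

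Other genes of the pathway were taken as lists, to be read beside 3.70% of all 8008 genes called higher and 4.90% called lower. Of the 4 subunits of complex II, which feeds electrons from succinate into the chain and carries none of the members' symbols, *SdhB* rose and none fell, with log2 fold changes from 0.26 to 0.59 and a median of 0.49. *SdhB*, the iron-sulphur subunit, had 54.4, 48.4, 48.5 and 47.6 CPM in control and 65.3, 71.8 and 68.6 CPM in HP1-KD libraries (log2 fold change 0.46, SE 0.10, edgeR adjusted p = 0.033). None of 7 further subunits of complexes III, IV and V with other symbols was called (*RFeSP*, *Cyt-c1*, *ox*, *levy*, *cype*, *blw* and *sun*; median 0.08). They ranged from −0.26 for *cype* to 0.70 for *levy*. In *levy* (edgeR adjusted p = 0.055), *blw* (log2 fold change 0.61) and *sun* all HP1-KD libraries lay above all control libraries (background 15.2%). In *cype* all HP1-KD libraries lay below (background 15.1%). Cytochrome c, encoded by *Cyt-c-p*, had 137.8 to 144.1 CPM in control and 84.5 to 115.1 CPM in HP1-KD libraries, a log2 fold change of −0.47 (SE 0.12, edgeR adjusted p = 0.0514). Of 9 assembly factors listed, 7 were found by symbol. Of those 7, 1 rose, *sicily*, which complex I assembly needs (log2 fold change 0.94, SE 0.22, edgeR adjusted p = 0.042). Of 14 genes listed for the citric acid cycle, 13 were found by symbol. None of these 13 and none of 9 genes for the expression and copying of mitochondrial DNA was called, with medians of 0.18 in both. *mtTFB1* of the mitochondrial DNA list and *Ccdc56* of the assembly factors are listed with identical counts in all 7 libraries and cannot be told apart, and without *mtTFB1* the median of the other 8 genes was 0.21. Of 12 tested genes of protein import 1 rose, *Tom7*, a small subunit of the outer membrane translocase (log2 fold change 0.84, SE 0.16, edgeR adjusted p = 0.0215). With total count scaling *SdhB*, *sicily* and *Tom7* also had log2 fold changes below 0, and none of them was called in more than 3 of the 7 fits that left out a library. Of 3 nuclear regulators, *srl* (PGC-1), *ewg* (NRF-1) and *Ets97D* had log2 fold changes of 0.70, 0.60 and −0.08, and none was called. Nor was any of the 3 genes of the adenine nucleotide carriers and porin. Of 13 subunits encoded in mitochondrial DNA, 0 were found by symbol in the count table, so they were not analysed here.

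Neighbouring genes set a limit on some members, since the exons of 31 members overlap those of another gene. *ND-MNLL* shares all of its exons with *CG45089* on the same strand, and both are listed with identical counts in all 7 libraries, so the value of *ND-MNLL* cannot be told apart from that of *CG45089*. Genes on the opposite strand of members were listed at widely different levels. *CG2962*, which runs against 35.6% of the exons of *ATPsyndelta*, had 0 counts in every library where *ATPsyndelta* had 565 to 2003. *CG32576*, opposite all exons of *UQCR-14*, had 46 to 190 counts beside 317 to 1228.5 for *UQCR-14*. *POSH*, opposite 40.5% of the exons of *UQCR-6.4*, had 106.5 to 320 counts beside 47 to 145.5 for *UQCR-6.4*. *COX6B* shares 9.4% of its exons with *CG18809* on the same strand, which had 198.5 to 720 counts beside 579.5 to 1790 for *COX6B*. Of the 6 members that rose, all but *ATPsyngamma* share some exon bases with another gene. *UQCR-Q* shares 2.1% of its exons with *CG46525* on the same strand, a gene that is not in the count table. *CG34180* opposite *ND-51* was at 0 in every library and *CG13587* opposite *ATPsynF* reached 0.5 counts, while *CG12204* opposite *ND-18* and *opm* opposite *ND-B18* were not called, with log2 fold changes of 0.08 and −0.25. Among the 27 tested members without exon overlap, 1 rose and 1 fell (*ATPsyngamma* and *ATPsynE*), with a median of 0.05. Each is 3.7% of them, beside 3.70% of all genes called higher and 4.90% called lower. Of the 27, 19 had log2 fold changes above 0 and 8 below. In 9 (33.3%, background 15.2%) all HP1-KD libraries lay above all control libraries, and in 4 (14.8%, background 15.1%) all lay below.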

How the data were processed

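The authors made and deposited estimated counts, 1 value for each FlyBase gene, in steps of 0.5 and not normalized, from TruSeq Stranded total RNA libraries. The submitters' processing notes name STAR and dm6; the counting program is not given in the sources used here. Positions and exons came from Ensembl release 115, where 17561 of 17699 identifiers were found. Counts were rounded, filtered with filterByExpr (8008 genes), scaled by TMM and compared with the quasi-likelihood F-test of edgeR 4.0.16 (R 4.3.3; design ~ condition), with Benjamini-Hochberg adjustment over all genes tested. Adjusted p under 0.05 was called. SE is the log2 fold change divided by the square root of F. The fit was tested on simulated data.

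Named genes were every called member, the extremes of level and fold change in each complex, paralogues with the genes they are named after, untested members, called genes of the lists, and *Su(var)2-5*. *ND-42*, *ND-75*, *Cyt-c-p* and other uncalled genes were added after their values were seen. Members and lists were chosen with earlier results of these data known. Alternatives were other scalings, filters, a robust fit, no rounding, the replicate number as a block, DESeq2 1.42.0, limma-voom (limma 3.58.1), another threshold and each library left out. Correlations of deviations between libraries of the same replicate number were computed. Planned searches for promoter motifs were not run. Figures were drawn with matplotlib 3.10.9.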

Additional observations from a re-analysis of the deposited data

Results flagged for a closer look

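*ATPsyngamma* stood out for 1 control library. Control replicate 2 had 60.1 CPM while the other 3 control libraries had 46.2 to 47.8 CPM, and the gap to the nearest library was 0.888 of the whole range of the group. Chance gives such a gap in about 1 in 20 groups, and 79 groups were examined. Without control replicate 2 *ATPsyngamma* was still called higher in HP1-KD embryos. *SdhB* likewise had 1 control library apart, control replicate 1 at 54.4 CPM beside 47.6 to 48.5 CPM in the others, a gap of 0.869 of the range.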

How the results depend on the processing

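With total count alone, 0 members were higher, 1095 genes were called, the members' median log2 fold change was −0.95 and the medians of complexes I, III, IV and V were −0.88, −0.77, −1.003 and −1.09. There the log2 fold changes were −0.62 for *ATPsynF*, −0.17 for *ATPsyngamma*, −0.35 for *ND-18*, −0.45 for *ND-51*, −0.65 for *ND-B18* −0.51 for *UQCR-Q*, −0.62 for *SdhB*, −0.25 for *Tom7* and −0.35 for *sicily*. The members' median lay 0.20 above that of all genes under both scalings. A change of scaling shifts all genes by nearly the same amount, so this distance could hardly change. Over all settings it ran from 0.13 (replicate number as a block) to 0.30 (no filter). Upper quartile scaling, at least 10 counts in every library, no filter, protein-coding genes only and limma-voom each called 3 members higher (*ATPsyngamma*, *ND-18* and *UQCR-Q*) and 1 lower (*ATPsynE*); 439 genes were called with at least 10 counts and 404 among protein-coding genes. DESeq2's Wald test called 12 members higher and 3 lower among 1488 genes, and an adjusted p under 0.1 in edgeR called 11 and 2 among 1435. With each library left out in turn, 1 to 10 members were higher, 0 to 2 lower and 181 to 1212 genes called. With the replicate number as a block, 0 members were called higher and 0 lower among 96 genes; same-numbered libraries deviated together at r = 0.41, −0.13 and 0.06 for replicates 1 to 3, HP1-KD replicate 2 correlated best with control replicate 3, and the samples share only a number. DESeq2's size factors, removal of rRNA genes, unrounded values and the robust fit left the same 7 members called. Over 75 single genes (tested members, genes left out for position and other genes named in the text), calls were lost 93 times, 9 of these with a change of sign, and gained 37 times. The causes were not tested. Depth limits the 21 untested members.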

Other observations

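The members on chromosome X had a median log2 fold change of 0.31 over 12 tested genes, with 2 called higher (*ND-18* and *ND-B18*) and 10 above 0. The median over all 1366 tested genes on X was 0.12, of which 5.27% were called higher. The 42 tested members on autosomes had a median of 0.06. Of these 4 were called higher (9.52%, beside 3.70% of all genes) and 1 lower (2.38%, beside 4.90%).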
